A study of Rattus norvegicus with 12 samples.

Results

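The response of NRK-49F cells to medium from cisplatin-injured epithelial cells was measured by RNA-seq gene counts in 6 libraries. NRK-49F is an established rat kidney fibroblast line, and NRK-52E is an established rat kidney line that stands in for tubular epithelium. The untreated-medium group, 3 libraries, was NRK-49F grown for 24 h in conditioned medium of NRK-52E cells given no cisplatin. The cisplatin-medium group, also 3 libraries, was NRK-49F grown for 24 h in conditioned medium of NRK-52E cells given 40 µM cisplatin. In both groups the medium was DMEM with 5% FBS. Per the labels' protocols, NRK-52E cells were exposed at 50% confluence for 6 h, rinsed, and left in fresh medium for 24 h to condition it. The series' design text instead gives 24 h of treatment with cisplatin or vehicle for the sequenced NRK-52E cells, and which schedule applies to the NRK-52E libraries used below is not settled by these sources. No NRK-49F library in unconditioned medium was analysed here, so each group is described against the other and not against a resting state. The features described are all genes whose counts passed an expression filter in these libraries, 11525 of the 21698 genes in the deposited table. The table gives genes by Ensembl identifier and pairs none with a name, so the response is described by gene level, size of change and scaling, with 4 identifiers given as examples.

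Kidney fibroblasts lie between the tubules and make and remodel the interstitial matrix. Injured tubular cells release growth factors, cytokines and matricellular proteins, and fibroblasts that sense them can divide, migrate, contract and lay down matrix. Cisplatin crosslinks DNA and is taken up by tubular cells, which is why it is used as a model of acute kidney injury. Conditioned medium passes on what the cells secrete, shed or leave unconsumed, and the comparison was set up to examine this paracrine route.

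Total counts per library ranged from 10411214 to 12549675 in the 6 NRK-49F libraries. A level in CPM is a count scaled to its library total, and 3 counts in a single library, which a count of 0 still allows, are 0.239 to 0.288 CPM. The first principal component held 80.2% of the variance and separated the groups, with untreated-medium scores of -30.55 to -28.49 and cisplatin-medium scores of 28.64 to 30.71. No library stood apart on it, and untreated-medium replicate 2 lay lowest on the second component, which held 6.5%. The fibroblast identity of the line was not checked against marker genes, since the identifiers are not paired with names here. Whether replicate libraries stem from separate cultures is not stated in the labels, and p-values here measure only how these libraries vary, which may be technical. Fewer cells with a transcript and less of it per cell cannot be told apart in bulk RNA.

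Under each scaling taken alone, most expressed fibroblast genes differed between the media, mostly by small amounts, and the largest changes were decreases. With edgeR's quasi-likelihood test (Benjamini-Hochberg adjusted p below 0.05), 3555 of 11525 genes rose (30.8%) and 3568 fell (31%), or 61.8% in all, with TMM factors (scaling factors that centre the bulk of the genes on no change). Of these, 2220 rose and 2545 fell by less than 1.5-fold. At 2-fold or more, 404 genes rose (3.51%) and 382 fell (3.31%). The balance then shifted to decreases: 27 genes rose and 71 fell by 4-fold or more, 4 rose and 33 fell by 8-fold or more, and 12 fell and 0 rose by 16-fold or more. With library totals as the only scaling the tail leaned the same way, with 40 genes higher and 57 lower at 4-fold, 7 and 30 at 8-fold, and 0 and 11 at 16-fold. The log2 fold changes of single genes ran from -7.29 to 3.47 with TMM factors. In the same direction under both scalings, 3555 genes passed as higher and 1926 as lower, a smaller share of the 11525 than under either alone.

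Only called genes without overlap between the groups were considered as examples, so their passing and non-overlap with TMM factors follow from that choice. The steepest decrease among genes with a mean of at least 5 CPM was that of ENSRNOG00000057443. Its counts were 604, 523 and 523 with untreated medium and 7, 11 and 9 with cisplatin medium. These counts are 52.2 ± 2.74 CPM in untreated medium and 0.712 ± 0.131 CPM in cisplatin medium (SD, n = 3 each, TMM-scaled). The groups lay far apart, and the gene was close to the limit of detection in cisplatin medium. Its log2 fold change was -6.17 (standard error 0.14, edgeR adjusted p = 6.91e-29), a level 72.0-fold lower. In NRK-52E the control libraries had 0 counts of it and those with cisplatin had 1, 3 and 0, so it was detected almost only in the fibroblast line.

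Among genes with a mean of at least 100 CPM, ENSRNOG00000008478 fell most. Its counts were 1959, 2314 and 2349 in untreated medium and 53, 56 and 60 in cisplatin medium. The levels were 211.03 ± 33.8 CPM and 4.48 ± 0.122 CPM (SD, n = 3 each, TMM-scaled). Untreated-medium replicate 1 was the lowest of its group and still above each cisplatin-medium library. The log2 fold change was -5.55 (standard error 0.11, edgeR adjusted p = 4.33e-31), a level 47.0-fold lower. This gene too had 0 counts in the NRK-52E control libraries, and those with cisplatin had 9, 11 and 5.

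The largest increase at a mean of at least 5 CPM was that of ENSRNOG00000025895, which was a rare transcript in the fibroblasts. It had 17, 7 and 21 counts with untreated medium and 133, 106 and 144 counts in cisplatin medium. The levels were 1.4 ± 0.63 CPM and 10.2 ± 1.71 CPM (SD, n = 3 each, TMM-scaled). The groups did not overlap, and the lowest value was that of untreated-medium replicate 2. The log2 fold change was 2.83 (standard error 0.22, edgeR adjusted p = 1.32e-13), a level 7.09-fold higher. The same gene was abundant in NRK-52E, at 354, 372 and 374 CPM of library total in the control libraries and 162, 142 and 151 CPM in the cisplatin libraries, so it fell with cisplatin in the epithelial line (log2 fold change -1.31, edgeR adjusted p = 1.13e-23).

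Among genes with a mean of at least 100 CPM the increases were smaller, and ENSRNOG00000019549 rose most. Its counts were 653, 561 and 678 in untreated medium and 2180, 2433 and 2460 in cisplatin medium. The levels were 59.8 ± 3.29 CPM and 187 ± 4.21 CPM (SD, n = 3 each, TMM-scaled), with no overlap between the groups. The log2 fold change was 1.65 (standard error 0.05, edgeR adjusted p = 2.23e-25), a level 3.13-fold higher. This gene rose with cisplatin in NRK-52E as well (log2 fold change 1.18, edgeR adjusted p = 2.69e-23). With library size as the only scaling the 4 genes had log2 fold changes of -5.97 for ENSRNOG00000057443, -5.35 for ENSRNOG00000008478, 3.03 for ENSRNOG00000025895 and 1.85 for ENSRNOG00000019549, and each passed the test.

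**Figure D1:**
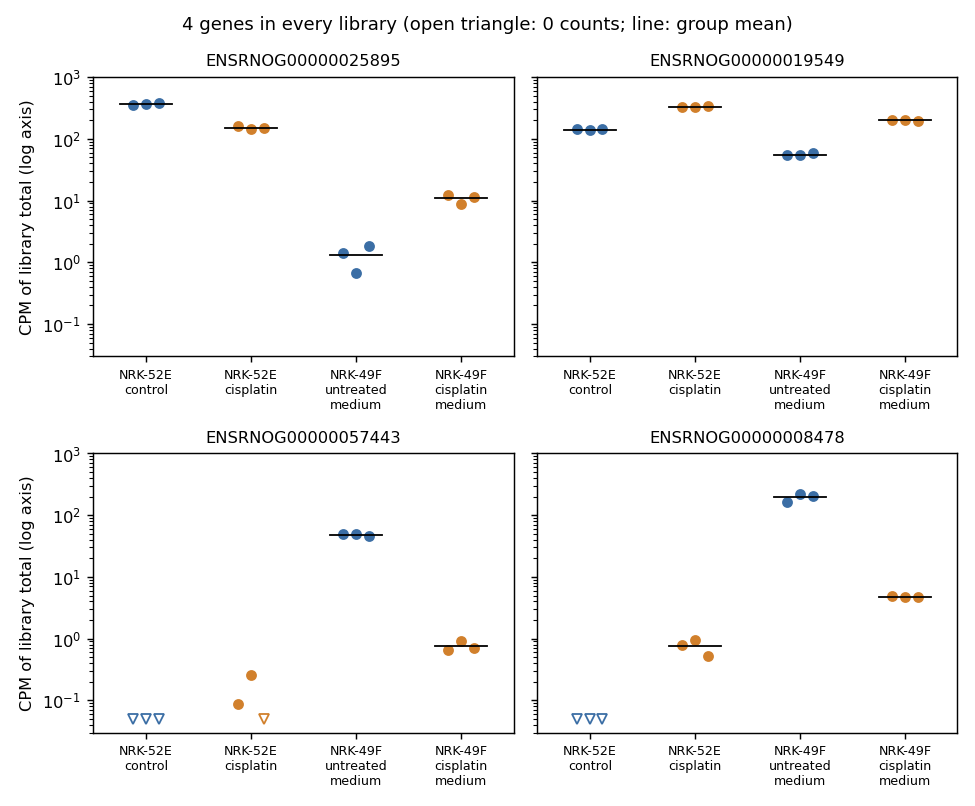
Levels of 4 genes in all 12 libraries, in CPM of the library total on a log axis, with 1 point per library, a line at the group mean where no library is at 0, and an open triangle for 0 counts. ENSRNOG00000057443 and ENSRNOG00000008478 are highest in NRK-49F with untreated medium, ENSRNOG00000025895 is highest in NRK-52E control, and ENSRNOG00000019549 is higher in the cisplatin group of each line.

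The direction of small changes depended on the scaling. The TMM factors were 0.93 to 0.934 for untreated-medium libraries and 1.068 to 1.075 for cisplatin-medium libraries, so the groups were moved apart relative to their library totals. With library size only, log2 fold changes moved up by 0.1 to 0.2 (median 0.2), and the median over all genes went from 0.02 to 0.22. The calls then became 5918 higher (51.3%) and 1926 lower (16.7%), and 68.1% of genes passed. Increases of at least 2-fold went from 404 to 729 (6.33%) and decreases from 382 to 233 (2.02%). Against a required change of more than 1.5-fold, edgeR's glmTreat called 548 genes higher and 636 lower with TMM factors, and 1155 higher and 382 lower with library size only.

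Most larger changes kept their direction under both scalings. All 3555 genes that rose with TMM factors (median log2 fold change 0.47) also rose with library size only. That was largely fixed in advance, since library size moved nearly every gene up by about 0.2. Only the decreases could lose their call. Of the 3568 genes that fell with TMM factors, 1926 fell with library size only as well, at a median of -0.6, and 1596 did not pass, at a median of -0.23. Another 46 genes changed sides, lower with TMM factors (log2 fold changes of -0.12 to -0.08) and higher with library size only (0.08 to 0.12). These 46 were abundant genes, at 151 to 2450 CPM, where small differences pass the test. A further 2317 genes rose only with library size, at a median TMM log2 fold change of 0.07. Genes without a call under either scaling numbered 2085.

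**Figure D2:**
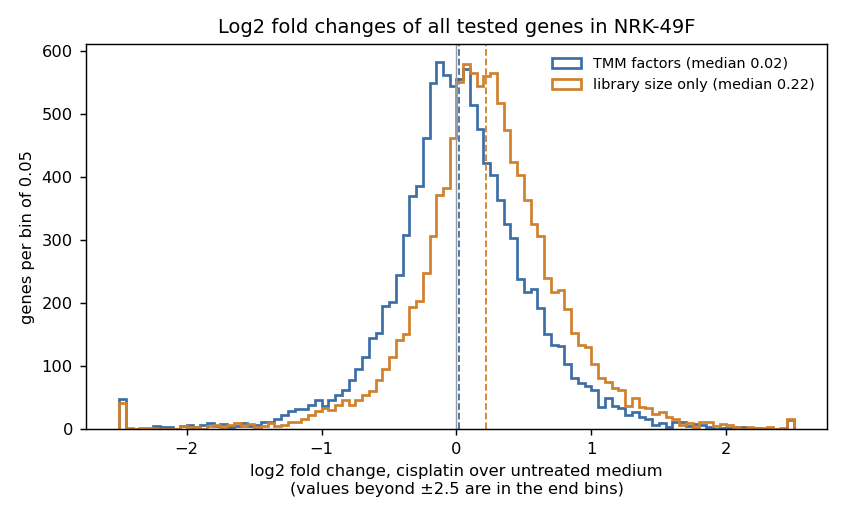
Histogram of the log2 fold changes of the 11525 tested genes in NRK-49F, cisplatin over untreated medium, in bins of 0.05, with values beyond 2.5 either way placed in the end bins and a dashed line at each median. The TMM distribution is centred near 0 (median 0.02), and the library-size distribution has the same shape shifted up by about 0.2 (median 0.22).

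Rarer transcripts tended to rise and abundant ones to fall, relative to the bulk of the genes. The tested genes were divided into 10 classes of equal size by their mean CPM over the 6 libraries. With TMM factors the median log2 fold change was 0.17 in the class of 0.585 to 2.71 CPM, 0.26 at 2.71 to 6.63 CPM and 0.25 at 6.63 to 12.4 CPM. It passed below 0 between the class of 28.9 to 42.5 CPM (median 0.04) and that of 42.5 to 61.3 CPM (median -0.05), and was -0.18 in the class of 166 CPM and more. Calls moved in step: 523 genes rose and 147 fell at 6.63 to 12.4 CPM, whereas 179 rose and 767 fell at 166 CPM or more. With library size only the trend had the same slope but lay above 0 throughout, from a median of 0.46 at 2.71 to 6.63 CPM to 0.02 at 166 CPM or more, where 426 genes rose and 394 fell. The scalings differ by a nearly constant shift, so the relative order of the classes had to be the same under both. The fall of the abundant genes as a class was not common to both. Precision also followed abundance. The median standard error of the log2 fold change was 0.314 in the rarest class and 0.04 in the most abundant, the smallest called change was 0.54 and 0.08, and 28.4% and 82% of genes passed.

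**Figure D3:**
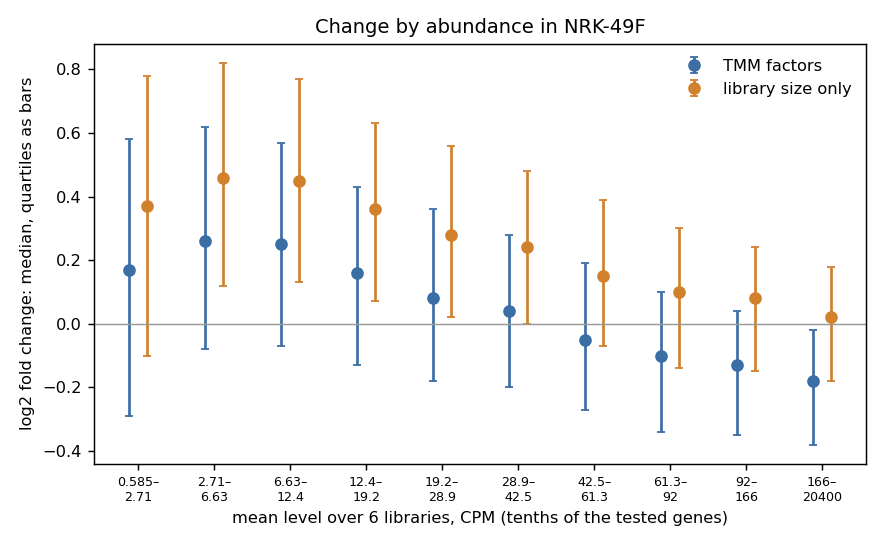
Log2 fold change (cisplatin over untreated medium) in 10 equal classes of genes by mean CPM over the 6 NRK-49F libraries, with points at the median and bars from the lower to the upper quartile over genes. Under both scalings the medians decline from the second class to the last, from 0.26 to -0.18 with TMM factors and from 0.46 to 0.02 with library size only.

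The counts were spread over more genes in cisplatin medium, a measure that needs no scaling between libraries. In untreated medium 571, 576 and 572 genes held 50% of a library's counts. In cisplatin medium 696, 686 and 698 genes did, each above every untreated-medium library. The means were 573 ± 2.65 and 693.3 ± 6.43 genes (SD, n = 3 each). By exact permutation, two-sided, p was 0.1, its minimum for 3 against 3 libraries. The 1000 most abundant genes, ranked by their mean share over the 6 libraries, held 59.8% ± 0.06 of an untreated-medium library and 56.4% ± 0.18 of a cisplatin-medium library (SD, n = 3 each, with the same exact permutation p of 0.1). The 10 most abundant held 10.7% ± 0.1 and 9.17% ± 0.15 (SD, n = 3 each, with the same exact permutation p of 0.1).

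Losses were concentrated in fewer transcripts than gains. Summed over genes on the library-size scale, losses and gains each came to 10.1% of the counts, which are equal by construction. The 10 genes with the largest losses in CPM made up 21.1% of all losses, and the 100 largest made up 50.3%. Gains were more even, with 6.76% in the 10 largest and 21.1% in the 100 largest. The 10 genes with the largest losses had 1430 to 16180 CPM in untreated medium and log2 fold changes of -3.89 to -0.44 with TMM factors. They were picked by this difference, so only their share is informative.

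**Figure D4:**
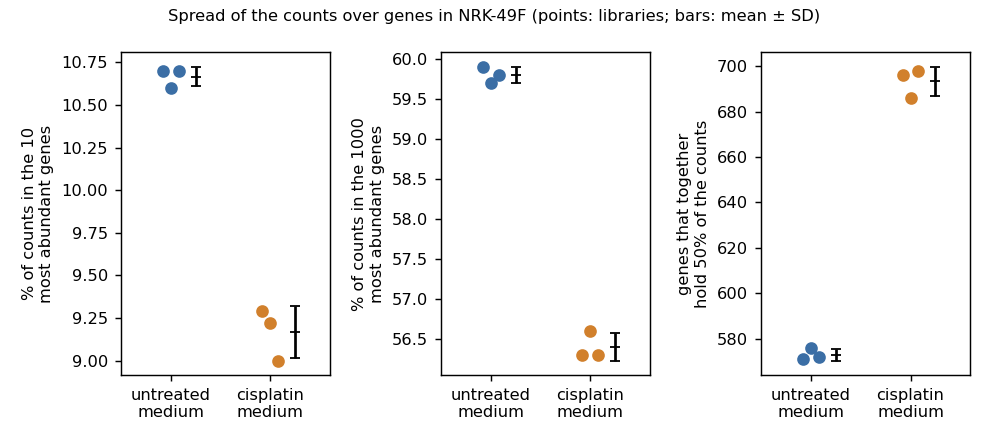
Percent of counts in the 10 and in the 1000 most abundant genes, and the number of genes that hold 50% of the counts, in the 6 NRK-49F libraries, with 1 point per library and bars for mean ± SD (n = 3), on axes that do not start at 0. Each cisplatin-medium library lies below each untreated-medium library in the first 2 panels and above in the last, 686 to 698 against 571 to 576 genes.

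How often fibroblast genes rose or fell differed with their NRK-52E control level, also within classes of NRK-49F level, which each span 10-fold or more. The NRK-52E level was taken from the 3 NRK-52E control libraries, which the NRK-49F comparison did not use. Among 910 genes at 1 to 10 CPM in NRK-49F and 10 to 100 CPM in NRK-52E control, 484 rose (53.2%) and 43 fell (4.73%) in cisplatin medium, where 30.8% of all genes rose and 31% fell. Among 1365 genes of the same NRK-49F level but 1 to 10 CPM in NRK-52E, 349 rose (25.6%) and 131 fell (9.6%), and among 484 under 1 CPM there, 111 rose (22.9%) and 105 fell (21.7%). The class at 1 to 10 CPM in NRK-49F and 100 CPM or more in NRK-52E was left out with fewer than 20 genes.

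At 10 to 100 CPM in NRK-49F, genes at the highest NRK-52E level again rose most often. Of 807 genes at 100 CPM or more in NRK-52E, 375 rose (46.5%) and 165 fell (20.4%). Of 5053 genes at 10 to 100 CPM in both lines, 1696 rose and 1574 fell, a split close to that of all genes. Of 374 genes at 1 to 10 CPM in NRK-52E, 90 rose (24.1%) and 162 fell (43.3%), and of 204 genes under 1 CPM there, 60 rose (29.4%) and 92 fell (45.1%). Among the most abundant fibroblast genes, at 100 CPM or more, decreases outnumbered increases at each NRK-52E level with TMM factors. They were most frequent, at 294 of 417 genes (70.5%), where NRK-52E had 10 to 100 CPM, and least frequent, at 928 of 1604 (57.9%), where NRK-52E also had 100 CPM or more.

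With library size only, the share that rose still went up with the NRK-52E level at 1 to 10 CPM in NRK-49F (35.1%, 40.7% and 71.3%). At 10 to 100 CPM it was 44.1%, 41.2%, 55.2% and 75.6% from the lowest NRK-52E level to the highest. The excess of decreases at 10 to 100 CPM in NRK-49F and 1 to 10 CPM in NRK-52E turned into 154 increases and 134 decreases, and that at under 1 CPM in NRK-52E into 90 and 66. Among genes at 100 CPM or more in both lines, the largest class of that NRK-49F level, 280 increases and 928 decreases turned into 702 and 410. At 100 CPM or more in NRK-49F and 10 to 100 CPM in NRK-52E decreases still led, with 216 against 125, as they did at 1 to 10 CPM in NRK-52E (18 against 12) and under 1 CPM (19 against 15). When the NRK-52E level was taken from the cisplatin libraries, the share that rose at 10 to 100 CPM in NRK-49F changed little with TMM factors. It was 29.1%, 34.2%, 34.6% and 35.1% from the lowest NRK-52E level to the highest, where 32.6% of 872 genes fell. With library size only it was 45.1%, 51.9%, 56.4% and 62.0%, and 14.6% of those 872 genes fell. At 1 to 10 CPM in NRK-49F the share that rose still went up with TMM factors, at 21.3%, 29.3%, 47.8% and 51.7%, the last in 29 genes. With that choice of level and TMM factors the decreases shifted as well. At 10 to 100 CPM in NRK-49F and 1 to 10 CPM in NRK-52E, 138 genes rose and 130 fell. At 100 CPM or more in NRK-49F, 56.0%, 65.9%, 61.5% and 60.4% fell from the lowest NRK-52E level to the highest. The lowest of these shares was that of 25 genes under 1 CPM in NRK-52E. All of these are counts over genes, with no test between classes.

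**Figure D5:**
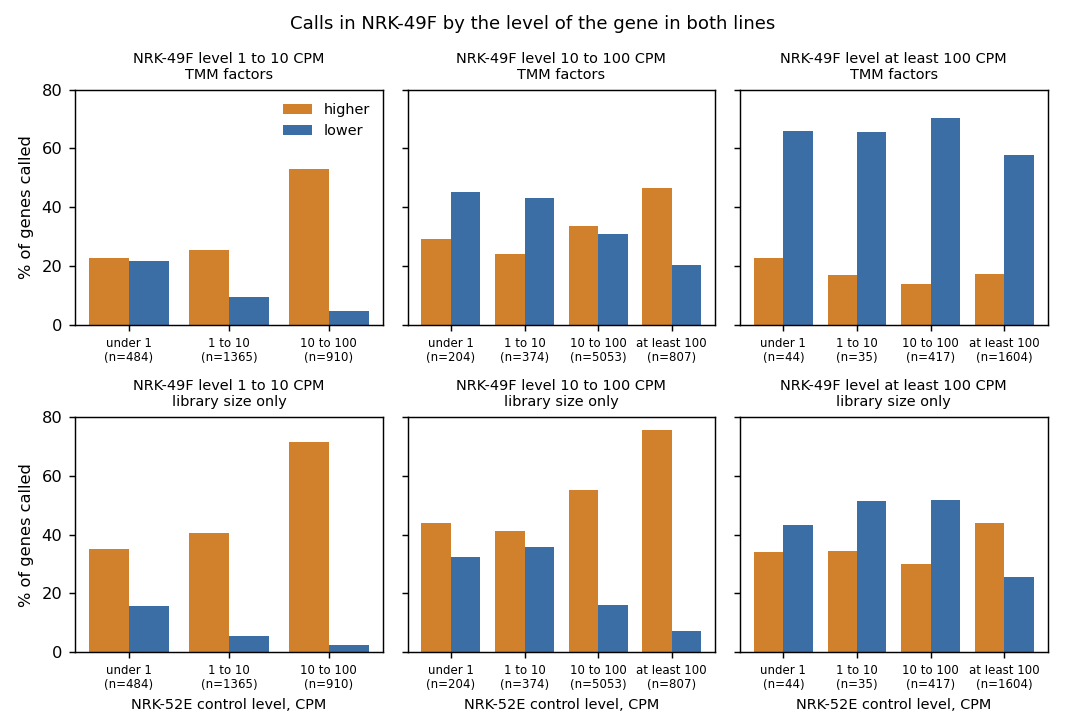
Percent of genes called higher and lower in NRK-49F with cisplatin medium, by the level of the gene in NRK-49F (panels, mean CPM over 6 libraries) and in NRK-52E control libraries (horizontal axis, CPM, with the number of genes), with TMM factors above and library size only below. At 1 to 10 and at 10 to 100 CPM in NRK-49F the share called higher is largest at the highest NRK-52E level shown, 53.2% and 46.5% with TMM factors.

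Genes abundant in NRK-52E and close to 0 in NRK-49F were examined one by one. They were chosen by a low level with untreated medium. There were 10 genes at 100 CPM or more in both NRK-52E groups and at 1 CPM or less in NRK-49F with untreated medium. In cisplatin medium 9 of the 10 had at most 5 counts over the 3 libraries together, and 4 of them had 0. The gene most abundant in NRK-52E, at 3526 CPM in control and 1356 CPM in cisplatin libraries, had 3 counts over the untreated-medium libraries and 5 over the cisplatin-medium libraries. Its 0.143 CPM in cisplatin medium equals 0.0106% of the NRK-52E cisplatin level, with an upper 95% Poisson limit of 0.0244% that covers counting error only. The remaining gene went from 0.586 to 6.93 CPM, or 20 to 241 counts. ENSRNOG00000025895 was outside these 10, at 1.4 CPM in untreated medium. On the library-size scale its mean level in cisplatin medium was 7.19% of that in NRK-52E cisplatin libraries. The part of NRK-52E RNA carried in the medium in the NRK-49F changes was not tested.

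Genes that NRK-52E hardly expressed were common among the steepest changes in both directions. Over the 3 NRK-52E control libraries, 335 of the 11525 genes (2.91%) had at most 3 counts. Of the 71 genes that fell at least 4-fold, 26 belonged to these 335 (36.6%), and of the 27 that rose at least 4-fold, 7 did (25.9%). Of the 335 genes as a whole, 92 rose (27.5%) and 115 fell (34.3%), shares near those of all genes (30.8% and 31%). Genes at their level differed from that background. Of 1152 genes at 2.71 to 6.63 CPM, a class that holds the median of the 335, 442 rose and 119 fell. Among the 335 genes, 59 fell (17.6%) and 30 rose (8.96%) by 2-fold or more, where 3.31% and 3.51% of all genes did. With library size only, the 2-fold counts among the 335 genes were 45 lower and 46 higher, where 2.02% of all genes fell and 6.33% rose. Decreases thus outnumbered increases in these genes only with TMM factors. Relative to all genes, the excess was larger for decreases under both scalings. The median level of the 335 genes in NRK-49F was 4.65 CPM, compared with 28.9 CPM for all tested genes. Increases of 2-fold were frequent at such levels. At 1 to 10 CPM in NRK-49F, 90 of 1365 genes at 1 to 10 CPM in NRK-52E control rose 2-fold with TMM factors. Of 910 genes at 10 to 100 CPM there, 112 did. Decreases of 2-fold numbered 37 and 10 in these classes. Of the 335 genes, 30 were under 1 CPM, where a gene passes the filter more readily when 1 group is high. Genes with a higher mean can also pass through 1 group alone, which favours steep changes. How many of the 26 and 7 genes passed in this way was not counted.

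Steep decreases were found from rare to abundant transcripts, and steep increases mostly among rare ones. The 71 genes that fell 4-fold had mean levels of 0.756 to 1300 CPM, and 16 of them reached 100 CPM. The 27 that rose 4-fold had 0.792 to 37.8 CPM, where 6 reached 10 CPM and none reached 100 CPM. The 71 genes together held 1.38% of untreated-medium counts and 0.245% of cisplatin-medium counts, and the 27 genes held 0.00555% and 0.0352%, values that describe sets picked by their change.

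The genes that changed at least 2-fold in the fibroblasts with TMM factors often changed in the other direction in NRK-52E given cisplatin. The count was not repeated for the 2-fold sets of library size only. It was made among genes at 1 CPM or more in NRK-52E control, where 3743 of 10697 genes rose with cisplatin (35%) and 4418 fell (41.3%). The median NRK-52E log2 fold change of these 10697 genes was -0.05. Over all 12508 genes tested in NRK-52E the shares were 38.7% and 37.6%. Of 269 such genes that fell 2-fold in NRK-49F, 168 rose in NRK-52E (62.5%) and 55 fell (20.4%), with a median NRK-52E log2 fold change of 0.56. Of 340 that rose 2-fold in NRK-49F, 75 rose in NRK-52E (22.1%) and 206 fell (60.6%), with a median of -0.52. The comparisons share no library. ENSRNOG00000025895 was one of the opposite movers, with a difference of 4.12 between its NRK-49F and NRK-52E log2 fold changes (edgeR adjusted p = 4.21e-23). ENSRNOG00000019549 moved the same way in both lines, by 0.45 more in NRK-49F (edgeR adjusted p = 4.91e-08). Both genes were picked by their NRK-49F change, which is part of these differences. In that fit of 12 libraries 66.5% of 13127 genes differed between the lines, and the lines received different agents, a medium and a drug.

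The replicates of a group lay close together. The median SD of log2 CPM (with 0.5 added) was 0.085 in untreated and 0.076 in cisplatin medium, whereas the median size of the log2 fold change was 0.282. The groups did not overlap for 7554 genes (65.5%) with TMM factors and for 8102 (70.3%) with library size only. Of the called genes, 339 had overlapping groups. Of the genes whose groups did not overlap, 770 were not called. The coefficient of variation that edgeR calls biological came to 3.47%, and with libraries that may be technical replicates the share of genes called need not hold for new cultures.

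The other 10173 genes of the table did not pass the filter. Of these, 4380 had 0 counts in all 6 libraries, 2577 had 1 to 3 counts over the 6 together, and 3216 had more, up to 69. Tested with no filter, 5793 of these genes had at least 1 count, and 61 were called higher and 70 lower (edgeR), of which 33 and 50 by 4-fold or more. The rest did not pass at these low counts, which does not show that they were unchanged.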

How the data were processed

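Gene expression was measured by RNA-seq, with stranded TruSeq mRNA libraries per the labels' protocols. The authors deposited raw counts of reads for each Ensembl rat gene in 1 table. The submitters' processing notes name STAR 2.7.10a, featureCounts and Subread without roles. Genome build, annotation and counting strand are not stated in what was used here, so counts of overlapping, antisense and near-identical genes are uncertain. Columns were matched to samples by title. No identifier was found in the rat RefSeq gene table (GRCr8, 0 of 21698 matched), so planned gene and marker lists were not run and no sequence is printed.

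NRK-49F groups (3 libraries each) were compared with edgeR 4.0.16 in R 4.3.3: glmQLFit and glmQLFTest with group as the only term, after filterByExpr (minimum count 10, minimum total 15) and TMM scaling, with Benjamini-Hochberg adjustment at 0.05. Kept genes held 99.9% of each library's counts. Library-size scaling, RLE factors, DESeq2 1.42.0, other filters, a replicate block, a fit of all 12 libraries and leaving out each library were alternatives. NRK-52E levels are CPM of library totals. The difference between lines was a contrast of 4 group means. A standard error is the size of the log2 fold change over the square root of F. The steps were tested on simulated counts. Replicate pairs differed beyond sampling noise (chi-square per degree of freedom 1.746 to 2.844), so each library was treated as 1 sample. The excess does not show that the libraries stem from separate cultures. Identifiers named are those with the most extreme change on each side at a mean of at least 5 and at least 100 CPM, called and without overlap. The gene sets and rules were chosen with earlier results of these data known. Python 3.11.15 and matplotlib 3.10.9 drew the figures.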

Additional observations from a re-analysis of the deposited data

Results flagged for a closer look

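Responses that differed between NRK-49F given cisplatin medium and NRK-52E given cisplatin are listed here because the difference itself passed the edgeR contrast. Over 13127 genes, 8724 differed, and the genes named below were picked by their NRK-49F change, which is part of the difference. ENSRNOG00000025895 had a difference of 4.12 (NRK-49F minus NRK-52E, log2 scale), having risen in the 3 NRK-49F cisplatin-medium libraries and fallen in the 3 NRK-52E cisplatin libraries. For ENSRNOG00000019549, which rose in both lines, the difference was 0.45. For ENSRNOG00000057443 it was -9.6 and for ENSRNOG00000008478 it was -11.51. The last 2 values depend on the prior count, since NRK-52E control libraries held 0 counts of either gene, and neither was tested within NRK-52E alone.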

How the results depend on the processing

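Scaling moved the split of directions. With library size only, genes that rose went from 3555 to 5918 and genes that fell from 3568 to 1926, increases of at least 2-fold from 404 to 729 and decreases from 382 to 233, and the share of calls that were increases from 49.9% to 75.4%. Under RLE factors and DESeq2 that share was 49% and 47.4%. The 4-fold counts, 27 higher and 71 lower, moved more with the filter than with the scaling (40 and 57). With no filter on low counts (17318 genes tested) 60 rose and 121 fell by 4-fold, and with a mean of at least 5 CPM (9653 genes) 11 rose 4-fold and 215 rose 2-fold. In one fit of 12 libraries 52 rose 4-fold, a fit that changes both the genes tested (13127) and the model, so the cause was not tested.

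Leaving out each library in turn gave 6606 to 6799 genes called, 3235 to 3363 higher and 3346 to 3436 lower, 412 to 456 higher and 376 to 408 lower by 2-fold, and 29 to 40 higher and 73 to 78 lower by 4-fold. The contrast between lines called 8444 to 8684 genes. ENSRNOG00000025895 kept its call, with log2 fold changes of 2.54 to 3.13. DESeq2 called 6182 genes. In all 14 settings 2424 genes were called higher and 1807 lower, where a gene left out by a setting's filter counts as not called. The replicate numbers did not pair the libraries: deviations of same-numbered libraries correlated at -0.03 to 0.014, and the replicate block gave 7020 calls. The 4-fold counts, the NRK-52E level classes and their alternatives were added after the data were seen. Depth limits changes in rare genes, where the smallest called log2 change was 0.54.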
